A study of Mus musculus with 48 samples.

Results

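Antigen presentation genes and the genes that mark Langerhans cells were followed in mouse skin after dosing with inhibitors of DGAT1, the enzyme that completes triglyceride synthesis. The members were all genes whose symbol starts with H2-, the mouse major histocompatibility complex, and 18 listed genes of peptide supply, class II assembly, Langerhans cells and costimulation. Of 19147 genes named on the array, 50 were members, 33 of them H2- genes and 17 from the list. Among the H2- genes, H2-Ke6 belongs to neither class I nor class II, and it is included in the counts of members. The cathepsin gene Ctss had no probeset naming it and is not analysed here, and 3 further probesets that name several genes were kept apart from the members. Skin RNA was taken from 48 mice, 1 array each, in 9 groups. Study 1 held Cpd2, Cpd1 and vehicle mice (8 per group), Study 2 Cpd2, Cpd6 and vehicle mice (4 per group), and Study 4 Cpd6, Cpd18 and vehicle mice (4 per group). All mice, vehicle mice included, were C57BL/6 of 8 weeks by the labels, and per the methods males made obese on a high-fat diet and dosed orally for 14 days, the vehicle being methylcellulose. Cpd2 and Cpd6 were skin-positive, meaning that sebaceous glands shrank under them, and Cpd1 and Cpd18 were skin-negative. The labels name dorsal skin, while the methods allow dorsal or ventral skin.

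Class I molecules present peptides from the cytosol on nearly every nucleated cell. They consist of a heavy chain (H2-K1, H2-D1 and the less variable class Ib chains) and B2m, and they receive peptides cut by the immunoproteasome (Psmb8, Psmb9, Psmb10) and pumped into the endoplasmic reticulum by Tap1 and Tap2, where Tapbp joins the pump to the empty heavy chain. Class II molecules present peptides from endosomes and belong to professional antigen-presenting cells. Their chains (H2-Aa, H2-Ab1, H2-Eb1) are escorted by the invariant chain Cd74, loaded with the help of H2-DMa and H2-DMb1, and switched on by the co-activator Ciita. Langerhans cells are the dendritic cells of the epidermis, known by langerin (Cd207) and the adhesion protein Epcam, which hair follicle keratinocytes also make. They display Cd80, Cd86, Cd40 and Cd83 when they mature and leave for the lymph node. In whole skin, fewer cells of a type and less RNA per cell cannot be told apart.

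The promoters of class II genes carry a Y box, an inverted CCAAT element bound by NF-Y, beside the elements through which Ciita acts. The following upstream stretches, 200 bases each, end at the base before the annotated start, and the capitals mark ATTGG or its reverse complement. They belong to the 3 class II genes called in Study 4 that have an entry in the promoter table and to the member with the largest difference in Study 1 (H2-Q7). The remaining one is that of Psmb9, between its start and that of Tap1. All are taken from RefSeq, build GRCm38.p6, 5′ to 3′ on the strand of the gene. H2-Aa lies at chr17:34287824-34288023 on the minus strand, H2-Eb1 at chr17:34305667-34305866 and H2-DMb1 at chr17:34152991-34153190, both on the plus strand. The Psmb9 stretch, chr17:34187331-34187530 on the minus strand, falls wholly between the starts of Psmb9 and Tap1, which face away from each other with 225 bases between them. H2-Q7 lies at chr17:35438955-35439154 on the plus strand.
H2-Aa: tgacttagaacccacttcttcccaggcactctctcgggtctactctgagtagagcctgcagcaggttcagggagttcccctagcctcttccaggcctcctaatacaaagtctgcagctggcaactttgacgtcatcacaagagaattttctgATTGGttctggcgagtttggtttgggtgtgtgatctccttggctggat
H2-Eb1: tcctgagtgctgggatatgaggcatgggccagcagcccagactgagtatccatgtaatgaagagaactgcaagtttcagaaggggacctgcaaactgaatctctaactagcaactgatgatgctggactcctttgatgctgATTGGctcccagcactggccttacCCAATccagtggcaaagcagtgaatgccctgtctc
H2-DMb1: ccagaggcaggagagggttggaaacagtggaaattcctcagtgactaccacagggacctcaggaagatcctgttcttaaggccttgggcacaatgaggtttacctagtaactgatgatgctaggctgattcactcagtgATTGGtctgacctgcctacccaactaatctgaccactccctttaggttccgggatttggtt
Psmb9: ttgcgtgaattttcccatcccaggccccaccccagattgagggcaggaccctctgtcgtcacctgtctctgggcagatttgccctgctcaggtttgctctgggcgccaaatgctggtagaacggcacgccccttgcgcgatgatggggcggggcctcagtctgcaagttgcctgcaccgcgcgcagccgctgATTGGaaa
H2-Q7: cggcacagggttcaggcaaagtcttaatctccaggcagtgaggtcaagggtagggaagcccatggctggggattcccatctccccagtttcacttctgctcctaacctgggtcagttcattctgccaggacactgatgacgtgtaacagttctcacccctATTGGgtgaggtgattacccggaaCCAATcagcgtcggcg

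Of the 50 members, 36 had an entry in the promoter table. The letters ATTGG, searched on both strands of the same 200 bases, were present for all 7 class II genes with an entry and in 29.3% of all 32851 promoters. Over all members with an entry they were present for 27 of 36. The longer CTGATTGG, which contains ATTGG, was present for 4 of the 7 (H2-Aa, H2-Eb1, H2-Eb2 and H2-Oa) and in 3.54% of all promoters. Over all members with an entry it was present for 15 of 36, so that most matches lay outside class II. It stood in the H2-Q7 stretch and in the stretch shared by Psmb9 and Tap1. A match is a description of the letters only.

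Intensities are given on the log2 scale, where a difference of 1 is a doubling, and for a gene with several probesets the brightest on average was used. Levels of different genes are not comparable on an array. Probesets under 2.93, the 25th percentile over the array, were not tested, which left 38 of the 50 members. The 12 below it averaged 2.03 to 2.91 and included H2-Ea (2.63), whose promoter is defective in the H2-b haplotype of C57BL/6, H2-Eb2 (2.56) and 10 class Ib genes. H2-K1, H2-D1 and the H2-Q and H2-T genes are related in sequence, so that their probesets may read each other's RNA.

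B2m was the steadiest of the class I genes, with group means from 12.94 to 13.11 over the 9 groups. H2-K1 ranged from 11.91 to 12.34. The class II chains H2-Ab1, H2-Aa and H2-Eb1 varied more from group to group than B2m and H2-K1. H2-Ab1 ran from 10.29 to 11.68, H2-Aa from 11.08 to 12.50 and H2-Eb1 from 11.22 to 12.77. Cd74 stayed between 12.19 and 12.64, a span close to that of H2-K1. In H2-Ab1, H2-Aa, H2-Eb1 and Cd74 the highest mean was that of Cpd2 in Study 1. A wide span was not particular to class II, since the class Ib gene H2-Q7 ran from 7.91 to 9.34. The vehicle groups themselves differed: H2-Ab1 averaged 11.39 ± 0.32 in Study 1 (SD, n = 8), 11.20 ± 0.34 in Study 2 (SD, n = 4) and 10.61 ± 0.11 in Study 4 (SD, n = 4), and Cd86 averaged 7.04 ± 0.19, 6.39 ± 0.39 and 6.04 ± 0.12 in the same order. Study cannot be told apart from anything else that differed between those mice, so every test below is against the vehicle group of the same study.

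In Study 1, Cpd2 raised 17 of the 38 tested members and lowered none (limma, Benjamini-Hochberg adjusted p under 0.05 over 28789 probesets), where 8.69% of all 15320 tested genes were called higher and 7.15% lower. The median difference was 0.32 over the members and 0.04 over all tested genes. The called genes lay in peptide supply (5 of 6), costimulation (4 of 4), Langerhans and dendritic cell genes (2 of 3), class Ib (3 of 11) and class II with its regulator (3 of 9), and in none of the classical class I genes, H2-K1, H2-D1 and B2m. H2-K1 was called with the methods' t-test (adjusted p = 0.0464) and in 1 fit over all arrays (limma adjusted p = 0.0442). Probesets that name H2-K1 and H2-D1 together are outside these counts. One read 9.70 to 10.26 in Cpd2 mice and 9.19 to 10.18 in vehicle mice of Study 1. The other read 11.27 to 11.53 and 10.66 to 11.31. Both overlapped, the second only slightly, with most of its Cpd2 mice above all vehicle mice. No test of these shared probesets is given here.

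**Figure D1:**
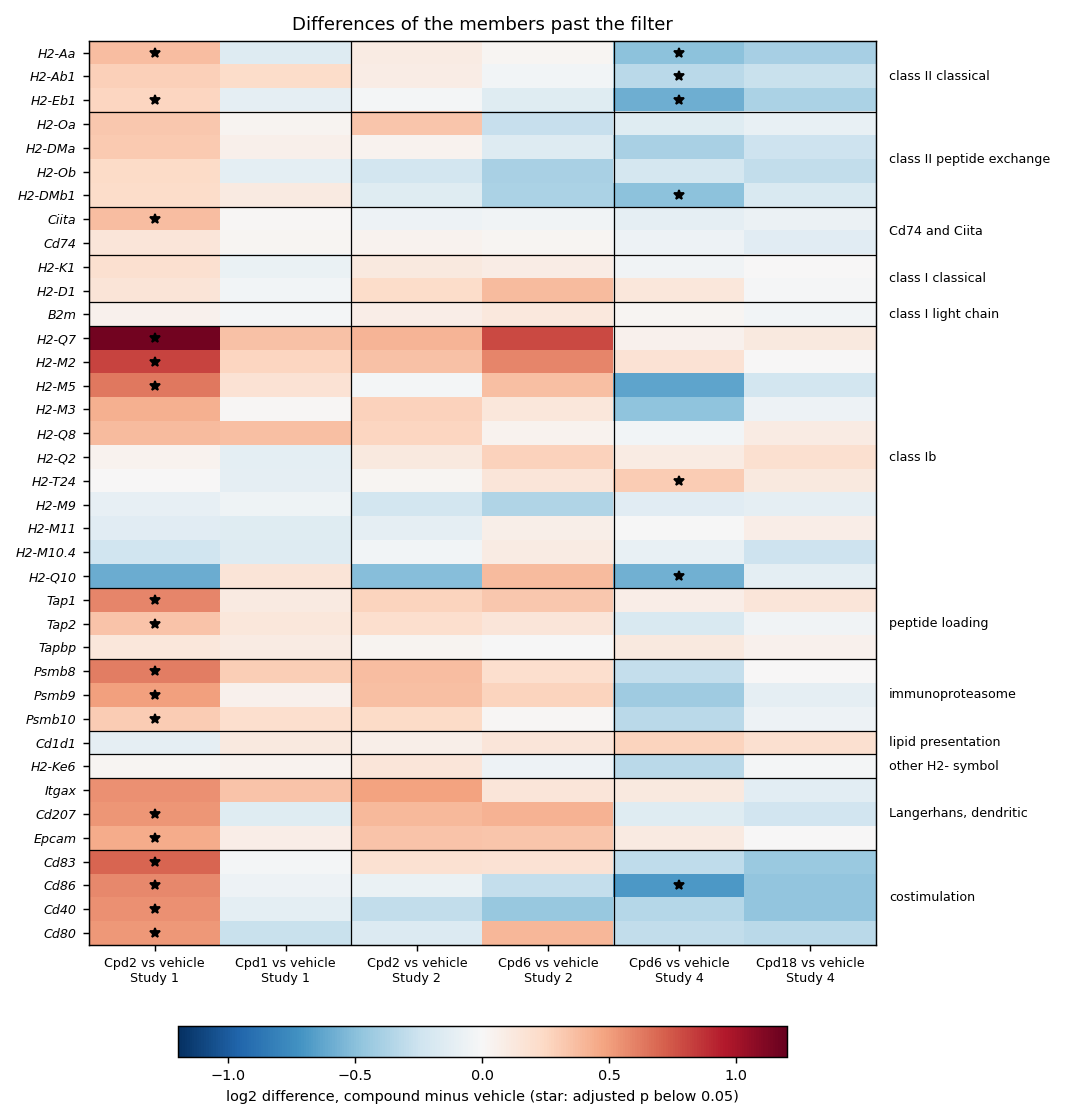
Log2 differences, compound minus vehicle of the same study, of the 38 tested members (rows, grouped by role) in 6 comparisons (columns), with a star where the adjusted p was below 0.05. The 17 stars of Cpd2 in Study 1 are all on higher genes, and those of Cpd6 in Study 4 stand on 1 higher and 6 lower genes.

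Among the class II chains, H2-Aa lay between 12.35 and 12.70 (median 12.49) in the 8 Cpd2 mice of Study 1, against 11.60 to 12.32 (median 12.19) in the 8 vehicle mice. The groups did not overlap, and the difference was 0.37 ± 0.10 (SE, limma adjusted p = 0.0117). H2-Eb1, the beta chain of the E molecule, lay between 12.64 and 12.93 (median 12.76) in Cpd2 mice and 12.12 and 12.66 (median 12.55) in vehicle mice. The groups overlapped slightly, with a difference of 0.26 ± 0.08 (limma adjusted p = 0.0305). H2-Ea, the gene of the other chain of that molecule, was under the floor at 2.63, so H2-Eb1 is read as RNA only. H2-Ab1, the beta chain that pairs with H2-Aa, spanned 11.41 to 11.91 (median 11.75) in Cpd2 mice and 10.68 to 11.66 (median 11.47) in vehicle mice, and at 0.29 (95% interval 0.04 to 0.54) it missed the threshold (limma adjusted p = 0.126). Cd74 did so too, at 12.46 to 12.75 (median 12.68) in Cpd2 mice and 12.11 to 12.61 (median 12.55) in vehicle mice, a difference of 0.15 (95% interval 0.01 to 0.28). Ciita averaged 6.05 in Cpd2 mice and 5.68 in vehicle mice and rose by 0.37 ± 0.11 (limma adjusted p = 0.0271). None of the 4 peptide exchange genes passed, although each was higher on average, by 0.22 to 0.33.

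**Figure D2:**
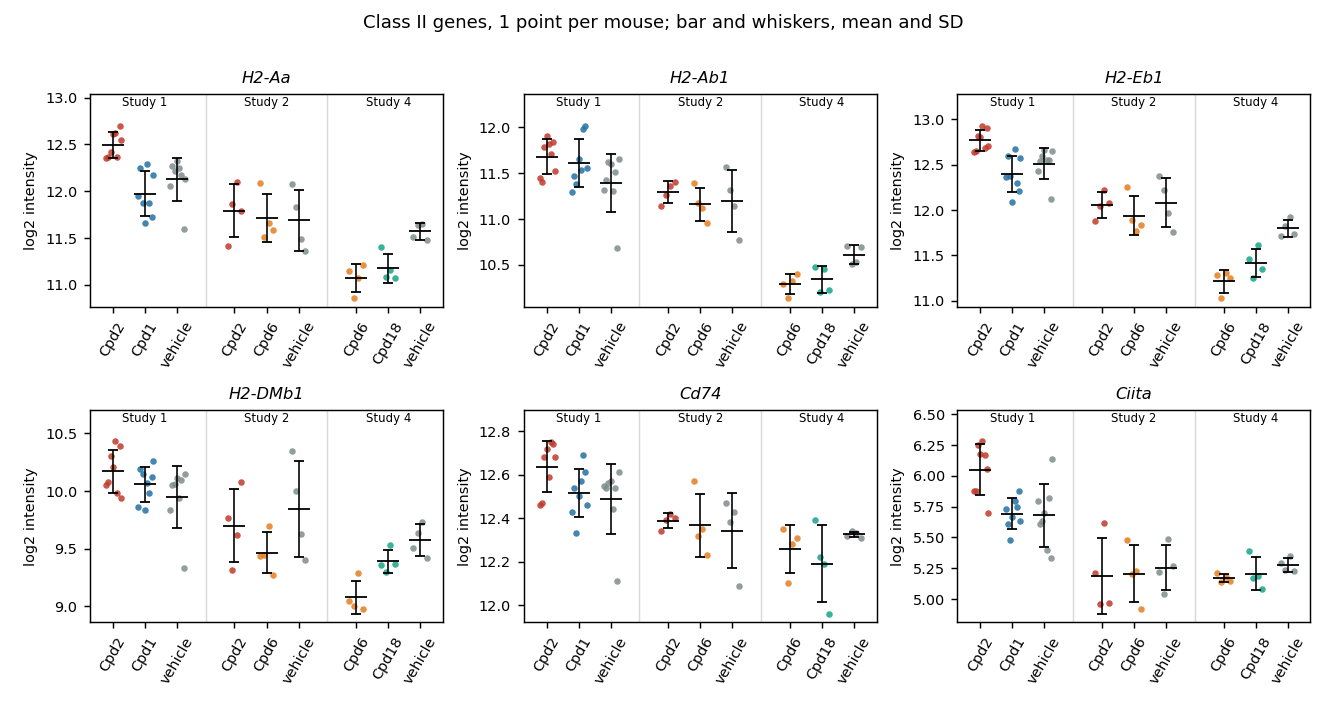
Log2 intensity (vertical axis) of 6 class II genes in each mouse (points) of the 9 groups (horizontal axis), with the group mean (bar) and SD (whiskers). H2-Aa of the Cpd2 mice in Study 1 lies above that of all vehicle mice of the study, and H2-Aa, H2-Ab1 and H2-Eb1 of the Cpd6 mice in Study 4 lie below that of all its vehicle mice.

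Among the peptide supply genes of class I, Tap1, a chain of the peptide pump, lay between 8.61 and 9.04 (median 8.79) in Cpd2 mice and 7.98 and 8.61 (median 8.21) in vehicle mice of Study 1, a rise of 0.59 ± 0.10 (limma adjusted p = 0.000157). Its partner Tap2 spanned 8.76 to 9.03 (median 8.91) in Cpd2 mice and 8.35 to 8.73 (median 8.56) in vehicle mice, with a difference of 0.34 ± 0.07 (limma adjusted p = 0.00282). All Cpd2 mice lay above all vehicle mice in both genes. The catalytic immunoproteasome subunit Psmb8 reached 10.44 to 11.15 (median 10.80) in Cpd2 mice and 9.47 to 10.41 (median 10.26) in vehicle mice, a rise of 0.61 ± 0.13 (limma adjusted p = 0.00152). Psmb9 reached 9.38 to 9.91 (median 9.6) in Cpd2 mice and 8.47 to 9.36 (median 9.28) in vehicle mice, a rise of 0.49 ± 0.12 (limma adjusted p = 0.0067). These groups were again separate, while the groups of Psmb10, the third subunit, overlapped (difference 0.31, adjusted p = 0.0426). Tapbp was 0.14 higher and not called.

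B2m itself lay between 12.78 and 13.13 (median 13.03) in Cpd2 mice and 12.84 and 13.11 (median 12.99) in vehicle mice of Study 1, a difference of 0.05 (95% interval -0.06 to 0.16). H2-K1 lay between 12.11 and 12.29 (median 12.17) in Cpd2 mice and 11.71 and 12.14 (median 12.02) in vehicle mice, a difference of 0.19 (95% interval 0.02 to 0.37, limma adjusted p = 0.129). Both groups overlapped for each gene. H2-Q7, a class Ib chain of the Qa-2 group, showed the largest difference of any tested member, at 8.58 to 9.47 (median 9.16) in Cpd2 mice and 7.26 to 8.36 (median 8.04) in vehicle mice. The groups were separate and the rise was 1.15 ± 0.17, or 2.23-fold (limma adjusted p = 6.65e-05). H2-M2, another class Ib chain, lay between 9.02 and 9.91 (median 9.53) in Cpd2 mice and 8.05 and 9.28 (median 8.78) in vehicle mice, a rise of 0.81 ± 0.15 (limma adjusted p = 0.000528). H2-M5 rose by 0.63, and the other 8 tested class Ib genes, from -0.60 (H2-Q10) to 0.42 (H2-M3), were not called.

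**Figure D3:**
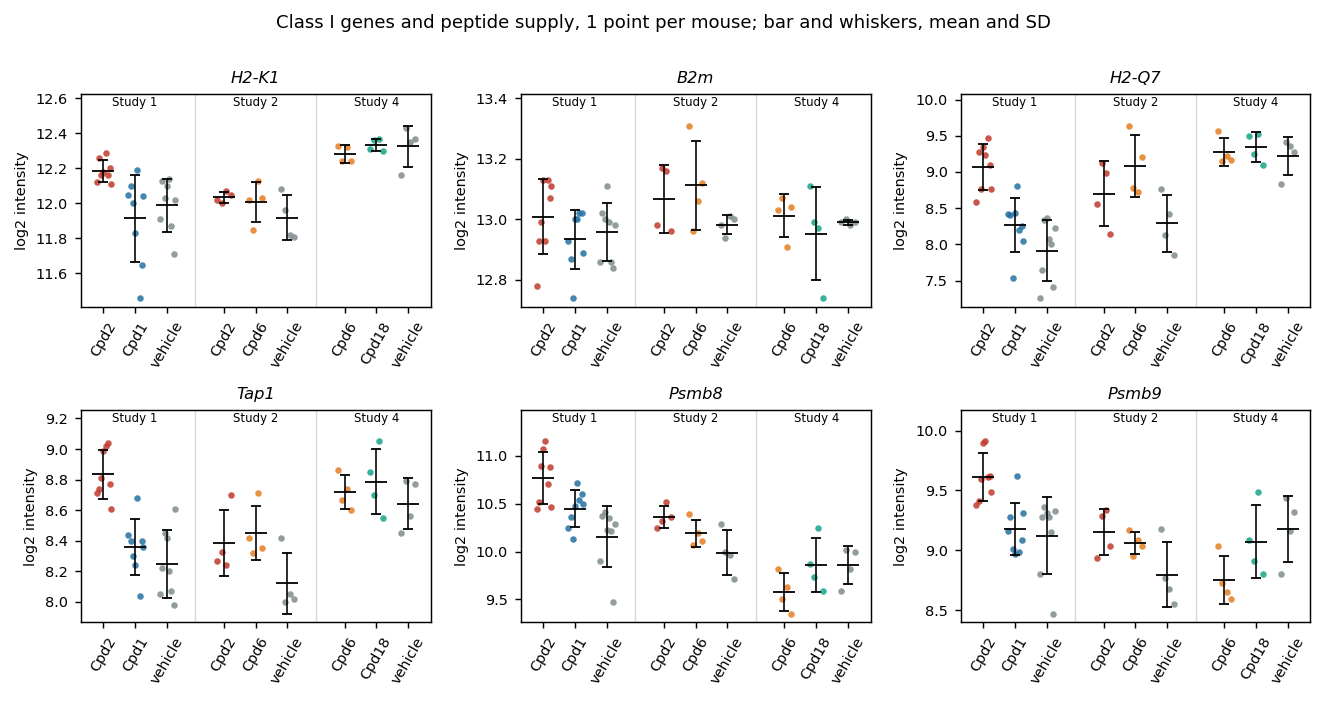
Log2 intensity (vertical axis) of H2-K1, B2m, H2-Q7, Tap1, Psmb8 and Psmb9 in each mouse (points) of the 9 groups (horizontal axis), with the group mean (bar) and SD (whiskers). In Study 1 the Cpd2 mice lie above the vehicle mice for H2-Q7, Tap1, Psmb8 and Psmb9, and among them for B2m.

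Langerin (Cd207) lay between 8.29 and 9.05 (median 8.81) in Cpd2 mice and 7.58 and 8.48 (median 8.27) in vehicle mice of Study 1, a rise of 0.53 ± 0.13 (limma adjusted p = 0.00855). Epcam lay between 10.44 and 10.94 (median 10.68) in Cpd2 mice and 9.90 and 10.40 (median 10.28) in vehicle mice, a rise of 0.45 ± 0.08 (limma adjusted p = 0.000412). The groups overlapped for Cd207 and were separate for Epcam. Itgax, the integrin chain CD11c of dendritic cells, averaged 8.32 in Cpd2 mice and 7.77 in vehicle mice, and its difference of 0.55 was not called (95% interval 0.11 to 0.98, limma adjusted p = 0.091). The 12 further tested genes on the Langerhans cell list had a median difference of 0.14. Only Il34 among them was called, at 0.75 (limma adjusted p = 0.000115). It is a cytokine that keratinocytes make and that keeps Langerhans cells alive, and no other gene of that list was called.

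Cd86, a ligand that gives T cells their second signal, spanned 7.32 to 7.88 (median 7.63) in Cpd2 mice and 6.66 to 7.20 (median 7.10) in vehicle mice of Study 1 with no overlap, a rise of 0.58 ± 0.12 (limma adjusted p = 0.00148). The other Cd86 probeset rose by 0.53 (adjusted p = 0.0245). The maturation marker Cd83 spanned 8.48 to 9.64 (median 9.09) in Cpd2 mice and 7.65 to 8.65 (median 8.46) in vehicle mice, a rise of 0.70 ± 0.15 (limma adjusted p = 0.00264). Cd40, the receptor through which T cells license dendritic cells, rose by 0.55 and Cd80 by 0.52. Among other genes of migrating dendritic cells, 7 of 11 were called higher, with the chemokine Ccl22 at 1.81 and Ccr7, the receptor that guides dendritic cells to lymph nodes, at 1.43.

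**Figure D4:**
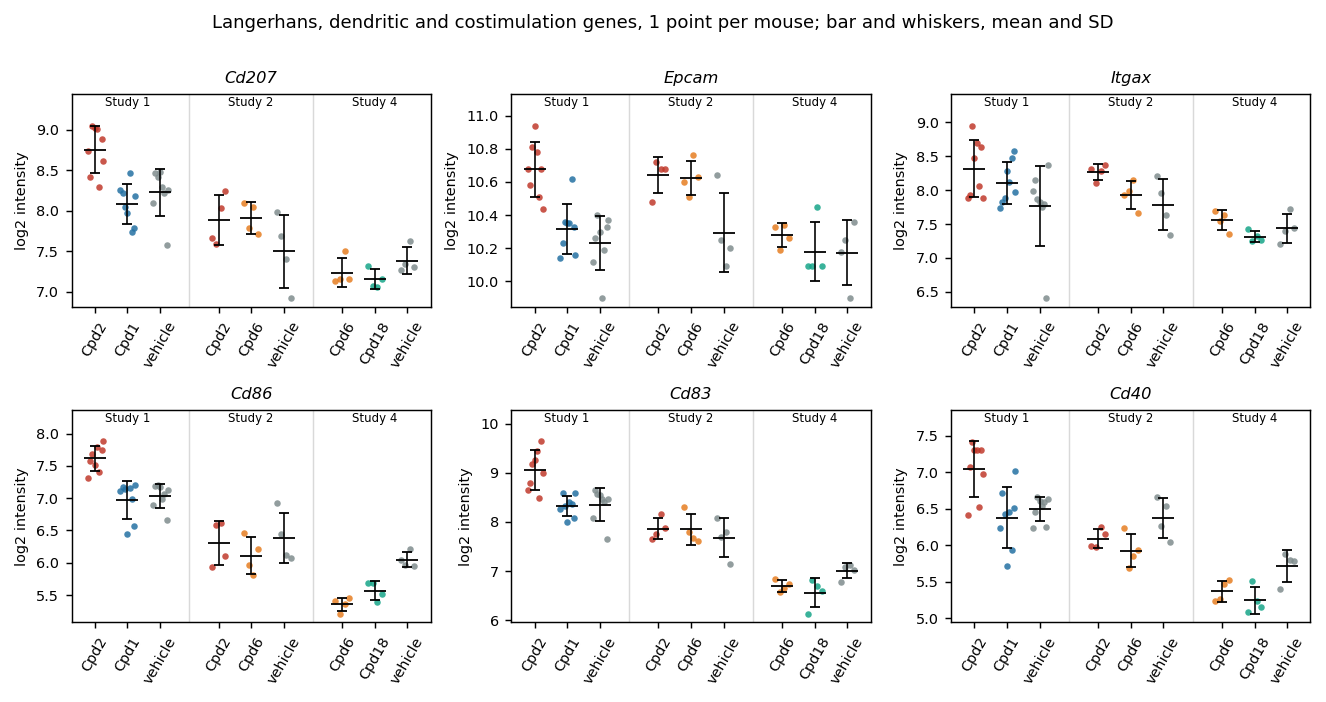
Log2 intensity (vertical axis) of Cd207, Epcam, Itgax, Cd86, Cd83 and Cd40 in each mouse (points) of the 9 groups (horizontal axis), with the group mean (bar) and SD (whiskers). Epcam and Cd86 of the Cpd2 mice in Study 1 lie above those of all vehicle mice of the study, and Cd86 of the Cpd6 mice in Study 4 lies below that of all its vehicle mice.

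Markers of other tissue moved with these rises. All 20 tested skeletal muscle genes were called lower in the Cpd2 mice of Study 1, and their mean ranged from 5.62 to 11.99 in Cpd2 mice and 10.21 to 12.28 in vehicle mice. It was 8.27, 5.62, 7.47 and 6.38 in Cpd2 replicates 2, 3, 4 and 7 and at least 10.8 in the other 4. Cd83 read 9.44, 9.18, 9.64 and 9.27 in those replicates and 8.48 to 9.0 in the other 4. Cd207 read 9.01, 9.05, 8.89 and 9.02 in those replicates and 8.29 to 8.74 in the other 4, so that both genes were higher in the mice with little muscle RNA. Psmb8 split in the same way (10.88 to 11.15 and 10.44 to 10.71), while H2-Q7 did not (8.77 to 9.35 and 8.58 to 9.47). In the same comparison 4 of 6 keratinocyte genes were called higher (mean 11.88 ± 0.10 in Cpd2 mice and 11.43 ± 0.14 in vehicle mice, SD, n = 8 each), 10 of 14 T cell genes (6.92 to 7.58 in Cpd2 mice and 6.24 to 6.86 in vehicle mice) and 1 of 12 macrophage genes (8.69 to 9.57 in Cpd2 mice and 8.40 to 9.32 in vehicle mice). Without replicates 3, 4 and 7, the 3 lowest in muscle genes, 8 members were called higher, against 3.73% of all genes: H2-Q7 at 1.15, H2-M2 at 0.71, H2-M5 at 0.66, Tap1 at 0.57, Cd86 at 0.56, Psmb8 at 0.50, Epcam at 0.36 and Tap2 at 0.32. With the muscle mean as a covariate 5 were called, against 2.7% of all genes called higher, namely H2-Q7, H2-M2, H2-M5, Tap1 and Cd86. The other 12 were 0.20 to 0.50 higher in that fit and not called. Cd207 was 0.39 higher without those mice and not called (adjusted p = 0.157). Dermal dendritic cell genes (4 of 11: Itgae, Mgl2, Cd209d and Flt3) and B cell genes (Blk and Fcer2a, 2 of 6) were called higher as well. Their means were 7.63 to 8.27 and 4.63 to 5.52 in Cpd2 mice, against 7.06 to 7.85 and 4.2 to 5.06 in vehicle mice. Sebaceous gland genes (3 of 8) were called lower, and of 6 neutrophil genes Mpo (-2.77) and S100a8 were lower and Csf3r higher. Hair follicle genes, which rise and fall with the hair cycle, varied widely within both groups (mean 5.56 to 9.24 in Cpd2 mice and 5.39 to 11.12 in vehicle mice), and with their mean as a covariate all 17 members were called, against 9.95% of all genes called higher. The part of keratinocyte, T cell, dermal dendritic cell, B cell, sebaceous gland and neutrophil RNA was not tested.

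Cpd1, the skin-negative compound of Study 1, changed no member past the threshold in limma, where 0.379% of all genes were called higher and 0.0914% lower. At an unadjusted p under 0.05 there were 2, Psmb8 (0.29) and H2-Q8 (0.36), both higher, where 10.4% of all genes were. H2-Aa averaged 11.97 in Cpd1 mice and 12.13 in vehicle mice, Tap1 8.36 and 8.25, and Cd207 8.08 and 8.23, each with an interval of the difference that includes 0. For H2-Q7 the interval ran from -0.01 to 0.71. The Cpd1 and Cpd2 comparisons share their vehicle mice and are given side by side only, since the labels give no dose and the methods do not settle that of Cpd1.

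Study 2 repeated Cpd2 with 4 mice per group and added Cpd6. No member was called in limma for Cpd2, where 0.0653% of all genes were called higher and 0.137% lower, or for Cpd6, where these shares were 0.137% and 0.437%. At an unadjusted p under 0.05, 5 members were higher under Cpd2 (Psmb8 at 0.37, Epcam at 0.34, Itgax at 0.48, Psmb9 at 0.36 and Psmb10 at 0.23), where 4.46% of all genes were. Under Cpd6 5 were higher (H2-Q7 at 0.79, H2-M2 at 0.59, H2-D1 at 0.38, Epcam at 0.33 and Tap1 at 0.33) and Cd40 was lower, at -0.46, 6 of 38 members in all where 13.5% of all genes passed, a share near that of the members. Epcam read 10.48, 10.68, 10.72 and 10.68 in Cpd2 mice, 10.60, 10.76, 10.51 and 10.63 in Cpd6 mice, and 10.64, 10.09, 10.25 and 10.20 in vehicle mice. Vehicle replicate 1 alone reached the treated mice. Without it Epcam was called under both compounds, at 0.46 for Cpd2 and 0.44 for Cpd6 (limma adjusted p = 0.0262 and 0.019). That mouse was also the highest of its group in H2-Aa (12.08), H2-Ab1 (11.57), H2-Eb1 (12.38), Cd207 (7.98) and Cd86 (6.92).

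Hair follicle genes were far lower in treated mice, with 10 of 11 at an unadjusted p under 0.05 for Cpd2 and 11 for Cpd6 but none called. Their mean ranged from 5.63 to 8.45 in Cpd2 mice, 5.52 to 7.06 in Cpd6 mice and 6.04 to 11.05 in vehicle mice. Epcam, which hair follicles also make, was 0.19 higher under Cpd2 and 0.13 higher under Cpd6 with that mean as a covariate, and not called.

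Among the class II genes of Study 2, H2-Ab1 read 11.14, 11.36, 11.26 and 11.41 in Cpd2 mice, 11.39, 11.12, 11.18 and 10.96 in Cpd6 mice, and 11.57, 11.14, 11.32 and 10.77 in vehicle mice. Cd74 read 12.34, 12.42, 12.39 and 12.40 in Cpd2 mice, 12.57, 12.35, 12.32 and 12.23 in Cpd6 mice, and 12.47, 12.43, 12.38 and 12.09 in vehicle mice. In both genes all 3 groups overlapped, and the intervals against vehicle were -0.20 to 0.39 and -0.33 to 0.26 for H2-Ab1 under Cpd2 and Cpd6. The 4 peptide exchange genes were not called either, with differences from -0.22 to 0.33 under Cpd2 and from -0.39 to -0.16 under Cpd6, each of those under Cpd6 below 0. Langerin read 7.66, 8.03, 7.59 and 8.24 in Cpd2 mice, 8.10, 8.05, 7.78 and 7.71 in Cpd6 mice, and 7.98, 7.40, 7.69 and 6.92 in vehicle mice, with differences of 0.39 (95% interval -0.06 to 0.83) and 0.42 (-0.03 to 0.86).

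Compared directly, Cpd2 and Cpd6 of Study 2, both skin-positive but of different structural series, differed past the threshold in no member and in 0% of all genes (limma). At an unadjusted p under 0.05 there were 4, where 6.91% of all genes passed: H2-Oa (0.60) and Psmb10 (0.21) were higher under Cpd2, and H2-Q10 (-0.89) and Cd80 (-0.57) lower. The labels give no dose, and the methods name 1 common dose for compounds with none of their own. Intervals of the difference were narrow for H2-K1 (-0.13 to 0.19) and B2m (-0.20 to 0.11) and wide for H2-Q7 (-0.92 to 0.14) and Cd207 (-0.47 to 0.41).

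In Study 4 class II genes were lower under Cpd6, which lowered 6 of the 38 members and raised 1 (limma adjusted p under 0.05), where 8.88% of all genes were called lower and 3.3% higher. The members' median difference was -0.15 and that of all genes -0.04. All 3 tested class II chains fell, as did H2-DMb1 (4 of 9 class II genes), Cd86 and H2-Q10, and the class Ib gene H2-T24 rose by 0.31 ± 0.09 (adjusted p = 0.0365). No gene of peptide supply, none of the 3 classical class I genes and none of the 3 Langerhans and dendritic cell genes was called.

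H2-Eb1 read 11.28, 11.30, 11.03 and 11.25 in Cpd6 mice and 11.71, 11.92, 11.82 and 11.74 in vehicle mice of Study 4, a fall to 0.667 of the vehicle level (difference -0.58 ± 0.08, limma adjusted p = 0.00134). H2-Aa read 11.15, 11.07, 10.86 and 11.21 in Cpd6 mice and 11.51, 11.65, 11.64 and 11.48 in vehicle mice (difference -0.50 ± 0.09, limma adjusted p = 0.00438). H2-Ab1 read 10.29, 10.33, 10.14 and 10.40 in Cpd6 mice and 10.71, 10.53, 10.51 and 10.70 in vehicle mice (difference -0.32 ± 0.08, limma adjusted p = 0.027). In each of the 3 chains every Cpd6 mouse lay below every vehicle mouse. H2-DMb1, which helps to exchange the peptide, fell by 0.49 ± 0.09 (adjusted p = 0.00637), and H2-DMa, its partner, was 0.39 lower and just missed the threshold (adjusted p = 0.053). The 2 probesets of H2-Ob, a brake on that exchange in B cells, disagreed: 1 fell by 0.97 (adjusted p = 0.00889) and the brighter one was 0.21 lower and not called. The one that fell read 2.60 to 3.41 in Cpd6 mice, near the floor of 2.93, and 3.73 to 4.40 in vehicle mice.

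Cd74 read 12.35, 12.28, 12.10 and 12.31 in Cpd6 mice and 12.32, 12.33, 12.34 and 12.31 in vehicle mice of Study 4, a difference of -0.06 (95% interval -0.23 to 0.10). Cd86 read 5.40, 5.36, 5.21 and 5.45 in Cpd6 mice and 6.05, 6.21, 5.97 and 5.95 in vehicle mice, a fall to 0.621 of the vehicle level (difference -0.69 ± 0.12, limma adjusted p = 0.00391). The other Cd86 probeset was 0.43 lower and not called. Langerin read 7.13, 7.50, 7.15 and 7.15 in Cpd6 mice and 7.26, 7.63, 7.34 and 7.30 in vehicle mice, while Epcam read 10.33, 10.34, 10.19 and 10.26 in Cpd6 mice and 10.18, 9.90, 10.25 and 10.36 in vehicle mice. Both overlapped, with intervals of -0.40 to 0.10 for Cd207 and -0.11 to 0.32 for Epcam. Nor did class I move past the threshold: B2m read 13.03, 12.91, 13.07 and 13.04 in Cpd6 mice and 12.99, 12.98, 13.00 and 12.99 in vehicle mice, and H2-K1 12.33, 12.32, 12.24 and 12.24 in Cpd6 mice and 12.16, 12.35, 12.43 and 12.37 in vehicle mice.

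Other genes fell in the same mice. Of 12 tested macrophage and monocyte genes, 10 were called lower (mean 6.94 to 7.38 in Cpd6 mice and 7.81 to 8.08 in vehicle mice), led by the complement genes C1qb (-1.26) and C1qc (-1.14), and 5 of 11 dermal dendritic cell genes, among them Clec10a (-1.08) and Cd209a (-1.32), were lower too. Csf1r, Id2 and Cd24a were called lower among the 12 further genes on the Langerhans cell list. Of the cathepsins and other enzymes of class II processing 4 of 11 were called lower (Ctsl, Ctsz, Ctsh and Lgmn), and of the constitutive proteasome 11 of 14. Neutrophil genes (4 of 6) were called lower, and 3 of 11 hair follicle genes, whose mean was 5.31 to 7.14 in Cpd6 mice and 5.65 to 10.56 in vehicle mice (median difference -4.29). With the hair follicle mean as a covariate 4 members were called, all lower, against 1.6% of all genes called lower: H2-Eb1 at -0.67, H2-Aa at -0.62, H2-DMb1 at -0.59 and Cd86 at -0.81. H2-Ab1 (-0.31), H2-Q10 and H2-T24 were no longer called. The muscle mean was 11.91 to 12.33 in Cpd6 mice and 11.67 to 12.14 in vehicle mice, with 4 of 20 muscle genes called higher. With that mean as a covariate 6 members were called, all lower, against 3.98% of all genes called lower. H2-M3 (-0.74) and H2-DMa (-0.55) were then called and H2-Ab1, H2-Q10 and H2-T24 were not. Keratinocyte genes (Lor and Krt1, 2 of 6) were called higher and sebaceous gland genes (3 of 8) lower. The part of macrophage, dermal dendritic cell, neutrophil, keratinocyte and sebaceous gland RNA in the class II differences was not tested.

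Cpd18, a skin-negative compound of the same structural series as Cpd6, gave no called member in Study 4 (limma), where 0.00653% of all genes were called lower and 0% higher. At an unadjusted p under 0.05 there were 6, all lower, where 5.12% of all genes were lower. They were H2-Eb1 (-0.38), H2-Aa (-0.40), H2-Ab1 (-0.27), Cd86 (-0.48), Cd40 (-0.47) and Cd83 (-0.44). H2-Eb1 read 11.46, 11.61, 11.25 and 11.35, H2-Aa 11.40, 11.16, 11.08 and 11.07, and H2-Ab1 10.48, 10.46, 10.20 and 10.23 in Cpd18 mice, each below the vehicle mice given above, with adjusted p-values of 0.161, 0.177 and 0.422. With the hair follicle mean as a covariate H2-Aa alone was called, at -0.42 (limma adjusted p = 0.0434), where 0.3% of all genes were called lower. That mean was 5.82 to 9.88 in Cpd18 mice. The macrophage mean was 6.96 to 7.52 in Cpd18 mice, below the vehicle mice as under Cpd6, with 11 of 12 genes at an unadjusted p under 0.05 and 0 called.

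Set directly against Cpd18 in the same study, Cpd6 differed past the threshold in no member, where 0.0522% of all genes were called higher and 0.64% lower (limma). At an unadjusted p under 0.05, 6 members were lower under Cpd6 and 1 higher, where 14% of all genes passed. H2-DMb1 came first (-0.31, 95% interval -0.51 to -0.11, adjusted p = 0.189). The difference was -0.06 (95% interval -0.24 to 0.13) for H2-Ab1, -0.10 (-0.28 to 0.09) for H2-Aa, -0.20 (-0.38 to -0.03) for H2-Eb1 and -0.21 (-0.46 to 0.04) for Cd86. For Cd207 it was 0.08 (-0.17 to 0.34) and for B2m 0.06 (-0.08 to 0.20).

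Whether a compound acted differently in its 2 studies was tested in 1 fit over all arrays. For Cpd2, Study 1 minus Study 2, no member was called, where 0.3% of all genes were called higher and 0.483% lower, and 7 were higher at an unadjusted p under 0.05 (7.13% of all genes), led by Cd40 (0.84, 95% interval 0.34 to 1.33, adjusted p = 0.0769) and Cd86 (0.66, 0.23 to 1.08, adjusted p = 0.104). For Cpd6, Study 4 minus Study 2, none was called, as for 0% of all genes, and 10 were lower at an unadjusted p under 0.05 (8.05% of all genes), among them Psmb9 (-0.69, -1.17 to -0.21), H2-Eb1 (-0.44, -0.77 to -0.10) and H2-Aa (-0.52, -0.94 to -0.10). Only with array weights were Cd40 (0.77, limma adjusted p = 0.0322) and Cd80 (0.88, limma adjusted p = 0.0442) called for Cpd2. In that contrast, without array weights, the 20 tested skeletal muscle genes had a median of -2.62. Their mean averaged 9.19 in Cpd2 mice and 11.89 in vehicle mice of Study 1, and 11.64 and 11.63 in Study 2. The part of muscle RNA in the contrast was not tested. The other called rises of Study 1 and the called falls of Study 4 are not shown to differ from the effects in Study 2.

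Variation from mouse to mouse within groups was compared for 6 pairs of measures. After subtracting each group mean, Cd74 and H2-Ab1 correlated with Pearson's r = 0.82 and Spearman's rho = 0.74 over 48 mice (permutation within groups, p = 1e-05, the smallest that 100000 permutations can give, adjusted p = 6e-05 over 6 pairs). Without the 2 mice farthest from the median r was 0.72, and within Studies 1, 2 and 4 it was 0.86, 0.88 and 0.58. Cd74 and Itgax gave r = 0.65 and rho = 0.53 (permutation p = 0.00013 and 0.00075, adjusted 0.00039 and 0.00225), 0.47 without 2 mice, and 0.77, 0.62 and 0.22 within studies. For Cd74 and Cd207, r = 0.42 (permutation p = 0.0106, adjusted 0.0212) and rho = 0.26 (p = 0.0987, adjusted 0.175) came down to r = 0.18 without 2 mice, so the pooled relation rests on those mice. Within Studies 1, 2 and 4 its r was 0.32, 0.75 and 0.22. The others were weaker: H2-K1 with B2m at r = 0.02 and rho = -0.03 (permutation p = 0.909 and 0.835), Cd207 with Epcam at 0.18 and 0.25 (p = 0.304 and 0.117), and Cd74 with the muscle mean at -0.06 and 0.03 (p = 0.705 and 0.834).

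**Figure D5:**
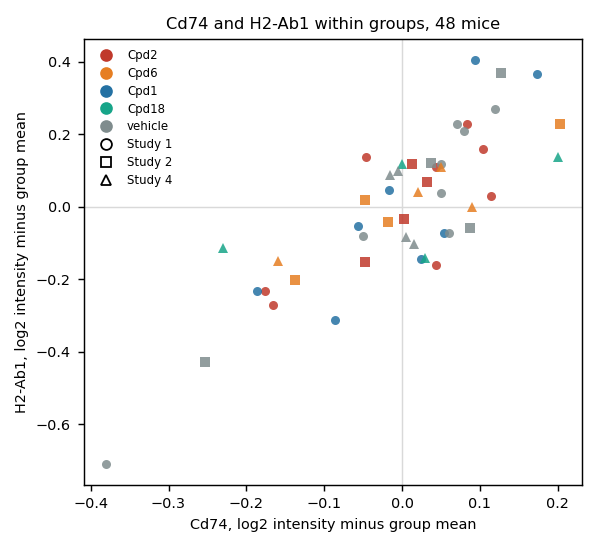
Cd74 (horizontal axis) and H2-Ab1 (vertical axis), each as log2 intensity minus its group mean, in 48 mice (points), with colours for compounds and shapes for studies. The points run from low to high together (r = 0.82), and the lowest point is vehicle replicate 4 of Study 1.

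Of the further genes around the pathway, Nlrc5, the class I counterpart of Ciita, rose by 0.86 in the Cpd2 mice of Study 1 (limma adjusted p = 4.74e-05) and Irf1 by 0.36 (adjusted p = 0.0319). With Ciita they were the 3 called of 10 genes on the list of class II transcription, which counts Nlrc5 as well. The median difference of that whole list was 0.01 in this comparison. None of 8 further class I loading genes was called there. In the same comparison 4 of 18 interferon-stimulated genes were called higher (Usp18 at 0.57, Oas1c at 0.47, Cxcl10 at 0.77 and Mx1 at 0.57), with a median of 0.23. The class I-like Procr fell under Cpd2 in Study 1 (-0.36) and under Cpd6 in Study 2 (-0.85, limma adjusted p = 0.0492) and Study 4 (-0.73).

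Array medians ran from 26.4 to 30.8 on the linear scale, no arrays were identical, and the skin identity of the samples was borne by Krt1, Krt10 and Lor at mean log2 intensities of at least 11.97. The limma p-values set a difference between group means against the spread between mice within groups, and the number of arrays limits the precision.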

How the data were processed

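RNA of 48 mouse skin samples was measured on a custom Affymetrix array, 1 mouse per array. The intensity table as deposited holds linear values that the authors made with RMA, a method named in the submitters' processing notes without a version, which removes background, brings the arrays to a common scale and combines the probes of a probeset. It was used as deposited, on the log2 scale. Genes were named by the platform annotation: 24478 of 38385 probesets name 1 gene, 65 several and 13842 none. The absent-call filter of the methods needs probe-level data, so a floor at the 25th percentile of average level was set instead, which kept 28789. limma 3.58.1 in R 4.3.3 was fitted per study with 1 mean per group and an intensity trend, the adjustment ran over all 28789 probesets, and fits were tested on simulated data. Figures and tables used Python 3.11.15. A call needed an adjusted p under 0.05.

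Groups came from the sample labels. Members and gene lists were chosen with earlier results of these data known. Per-mouse values were given for Cd74, H2-Ab1, H2-K1, B2m, Cd207 and Epcam and for up to 2 more called members per role with the smallest adjusted p, and for other lists up to 4 called genes per comparison. Members beyond that rule (such as H2-DMb1, H2-T24 or Itgax) are given by level and difference. Alternatives were the filter, the scaling, array weights, the trend, a replicate block, the methods' t-test, a joint fit of the 3 studies, every probeset, the muscle mean as a covariate and leaving out mice. The hair follicle mean as a covariate was added after seeing the data.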

Additional observations from a re-analysis of the deposited data

Results flagged for a closer look

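In groups of 4 or 8 mice, a mouse was singled out when its gap to the nearest other mouse took up an unusually large part of the group's range. This was met in 11 of 144 groups, where chance gives about 1 in 20 groups, or 7.2. Vehicle replicate 4 of Study 1 was singled out as the lowest of its group in 5 genes, with Cd74 at 12.11, H2-Ab1 at 10.68, H2-Eb1 at 12.12, H2-Aa at 11.6 and Cd207 at 7.58. The next lowest vehicle mice had 12.44, 11.31, 12.43, 12.06 and 8.09. Replicate 4 was also lowest, without being singled out, in H2-K1 (11.71), B2m (12.84), H2-M2 (8.05), Tap1 (7.98), Psmb8 (9.47), Psmb9 (8.47), Cd83 (7.65) and Cd86 (6.66). It was not the lowest in Epcam, H2-Q7 or Tap2. Its skeletal muscle mean was 10.2, the lowest of the vehicle mice.

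The other 6 were single values. Cd207 was 7.5 in replicate 2 of the Cpd6 mice of Study 4. Epcam was 10.62 in replicate 6 of the Cpd1 mice of Study 1 and 10.45 in replicate 2 of the Cpd18 mice of Study 4. H2-Q7 was 9.57 in replicate 1 of the Cpd6 mice of Study 4. Tap1 was 8.42 in replicate 1 of the vehicle mice of Study 2, the mouse without which Epcam was called there. These 5 were the highest of their groups, and Tap2 at 8.73 in replicate 1 of the Cpd6 mice of Study 2 was the lowest.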

How the results depend on the processing

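No called member changed direction under any alternative. For Cpd2 in Study 1 the 17 members called became 5 with the muscle mean as a covariate and 8 without the 3 mice lowest in muscle genes, and 12 (without Cpd2 replicate 2, 3 or 7) to 18 (without Cpd2 replicate 5) when 1 mouse was left out. Cd86, H2-M2, H2-M5, H2-Q7 and Tap1 lost their call under none of these. Leaving out 1 mouse ended the call of Cd40 (Cpd2 replicate 2, 3, 4 or 7 or vehicle replicate 1, lowest difference 0.49), Ciita (Cpd2 replicate 2, 3 or 7 or vehicle replicate 2, 0.32), H2-Eb1 (Cpd2 replicate 2, 3, 4 or 7 or vehicle replicate 1, 0.20), Psmb10 in 8 cases (Cpd2 replicates 2, 3, 4 and 7, vehicle replicates 1, 4, 7 and 8, 0.23) and Cd80 in 9 (Cpd2 replicates 2, 3, 4, 7 and 8, vehicle replicates 1, 3, 4 and 5, 0.45). With array weights H2-Q10 was called lower (-0.78). For Cpd6 in Study 4 the 7 members became 4 with no intensity trend, 3 in 1 fit over all arrays, 4 with the hair follicle mean as a covariate (chosen after seeing the data), and 4 (without Cpd6 replicate 1 or 3) to 8 (without Cpd6 replicate 2). H2-Aa, H2-Eb1 and Cd86 were called under all of these. H2-Ab1 lost its call in 4 of 12 cases (Cpd6 replicate 1 or 3 and vehicle replicate 1 or 4, from -0.36 to -0.28), H2-T24 in 7 and H2-Q10 in 10. In Study 2, Cpd6 went from 0 to 1 with array weights (H2-Q7 at 0.84), and both compounds ranged from 0 to 1 when 1 mouse was left out (Epcam, without vehicle replicate 1). For Cpd18 the hair follicle covariate called 1 (H2-Aa), against 0. The methods' t-test at the threshold of the methods, which is on unadjusted p and fold change, called 3 (H2-Aa, H2-Eb1 and Cd86, lower). The share of all genes at that threshold is not given here, so those 3 cannot be set against a background. With array weights 2 members were called for the Cpd2 effect in Study 1 minus Study 2 (Cd40 at 0.77 and Cd80 at 0.88), against 0. Cpd1, Cpd18 and the direct comparisons stayed at 0 whichever mouse was left out. The causes of these changes were not tested.

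The labels do not say that same-numbered mice belong together. The correlations of their deviations ran from -0.44 to 0.38 over the 8 comparisons within studies, and in none of these was every pair over 0.1. For Cpd6 and Cpd18 in Study 4 all 4 were positive (0.05 to 0.25) and 3 were over 0.1. With the replicate block 16 members were called higher for Cpd2 in Study 1 (7.43% of all genes higher, 6.49% lower) and 6 called for Cpd6 in Study 4, 1 higher and 5 lower (3.18% and 8.98% of all genes). The other comparisons, Cpd6 with Cpd18 included, stayed at 0 with the block. H2-Q10 and Cd80 were dim, at mean log2 intensities of 4.03 and 3.32 against the floor of 2.93.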
